A study of Mus musculus with 16 samples.

Results

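The unexposed epidermis of SKH-1 mice was compared between week 25 and week 2 of an experiment on ultraviolet B (UVB) light. The comparison used 4 of the 16 RNA-seq libraries of the series, the control libraries 0 and 1 of each week, chosen by their labels and not by any measured value. Control libraries 0 and 1 of week 15 served as a middle point. All the mice were female and of the SKH-1 strain, and the control mice received no agent. The 6 UVB-exposed epidermis libraries of weeks 2, 15 and 25, from mice given 60 mJ/cm2 UVB in 2 sessions per week, entered the fit to share the estimate of spread and as a second arm. The ages of the mice and the hour of collection are not given in the labels. Whether both libraries of a group stem from different mice is not stated, so each p-value reflects spread between libraries that could be technical. SKH-1 is an immunocompetent strain that loses its coat because of a defect in the hairless gene, and its skin keeps remnants of hair follicles together with sebaceous glands.

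Epidermis renews itself from a basal layer, where keratinocytes divide and adhere to the basement membrane through integrins and collagen XVII. Cells that leave this layer stop dividing, switch keratins and build the cornified envelope, whose precursors include the small LCE and SPRR proteins. Hair follicles and sebaceous glands grow down from the same epithelium and come away with it in part when epidermis is separated from dermis. Skin cells also carry a circadian clock, in which the CLOCK protein drives the period and cryptochrome genes, whose products repress it in turn.

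Deposited counts summed to 5696910 in week 2 control 0, 2905165 in week 2 control 1, 5619514 and 6155929 in the week 15 controls, and 6503183 and 7175363 in the week 25 controls. Week 2 control 1 was the shallowest library. Between the 2 libraries of a control group, the chi-square per degree of freedom, which sampling noise alone would put near 1, was 19.7 at week 2, 17.1 at week 15 and 6.93 at week 25. In the UVB groups it was lower, at 5.20, 5.72 and 6.79 at weeks 2, 15 and 25. The fit shares 1 estimate of spread over all these groups, so its p-values may understate the spread of the week 2 controls. The basal keratins Krt5 and Krt14 were abundant in every control library, with Krt14, the partner of Krt5 in basal cells, at 401 to 445 CPM (counts scaled to a common library size with TMM factors). The labelled tissue therefore carried its defining markers. Duplicate reads had been removed before counting, per the file headers. In week 2 control 1, abundant genes stood higher relative to control 0, by a median log2 of 0.40 among genes with 0.4 to 1 counts per base of exon and 0.87 at 1 count per base or more.

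At week 25, 1142 of 13478 genes tested were called higher (8.47%) and 706 lower (5.24%) than at week 2, of which 546 and 444 differed at least 2-fold. The shares of 8.47% and 5.24% are the background for each list count below. A gene was called at a Benjamini-Hochberg adjusted p under 0.05 in edgeR's quasi-likelihood test. The size of this count rested on single libraries and on the setting. Without week 2 control 1, which leaves 1 week 2 control that is assumed to vary like the other groups, 253 of 13883 genes were called higher (1.82%) and 97 lower (0.699%). These included 247 of the 1142 and 92 of the 706, and all 1848 genes kept their sign. With offsets that remove each library's smooth trend on exon length, 327 were called higher (2.43%) and 303 lower (2.25%), among them 316 and 250 of the original calls. Offsets on abundance gave 1272 higher and 1339 lower. Without week 25 control 0, 193 and 45 of the original calls remained, without week 25 control 1 134 and 17, and without week 2 control 0 1095 and 617. With the 4 libraries alone, 1 gene was called higher, Rfx2 (adjusted p = 0.0461), and none lower by the same edgeR test, with 1420 lower at an unadjusted p under 0.05. DESeq2 with the 12 epidermis libraries called 1561 higher and 1469 lower. The 13478 genes had 4378 with both week 25 libraries above both week 2 libraries and 4357 with both below.

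The largest rises that did not rest on week 2 control 1 included transcription factor, circadian and trafficking genes. Rfx2, which encodes an RFX transcription factor best known from ciliated cells and the testis (mm10 chromosome 17, 56775897 to 56831008), stood at 11.5 and 9.13 CPM in week 2 controls 0 and 1, at 89.05 and 119.5 CPM at week 15 and at 152.4 and 133.3 CPM at week 25. It rose by 3.76 ± 0.43 on the log2 scale (adjusted p = 0.00402). The groups did not overlap, which the rule that named the largest rises and falls required. Here and below ± gives an approximate standard error, the absolute log2 change divided by the square root of the test's F value. Rfx2 was the 1 gene among the 96 named and called that stayed called in each of the 18 alternatives run, with an adjusted p of at most 0.0461. Per2, a repressor arm of the clock (chromosome 1, 91415982 to 91459328), went from 6.28 and 3.74 CPM through 17.2 and 36.8 CPM to 83.3 and 62.0 CPM. That was a rise of 3.77 ± 0.54 (adjusted p = 0.00534), with week 15 between the other weeks. Zbed6, a transcription factor derived from a transposon that represses Igf2 (chromosome 1, 133655879 to 133660885), stood at 20.3 and 11.2 CPM at week 2, 78.5 and 71.6 CPM at week 15 and 103 and 114.9 CPM at week 25 (2.73 ± 0.25, adjusted p = 0.00213). Its exon overlaps exons of Zc3h11a and Gm38394 on the same strand in GENCODE vM21, so reads of these genes cannot be told apart there.

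**Figure D1:**
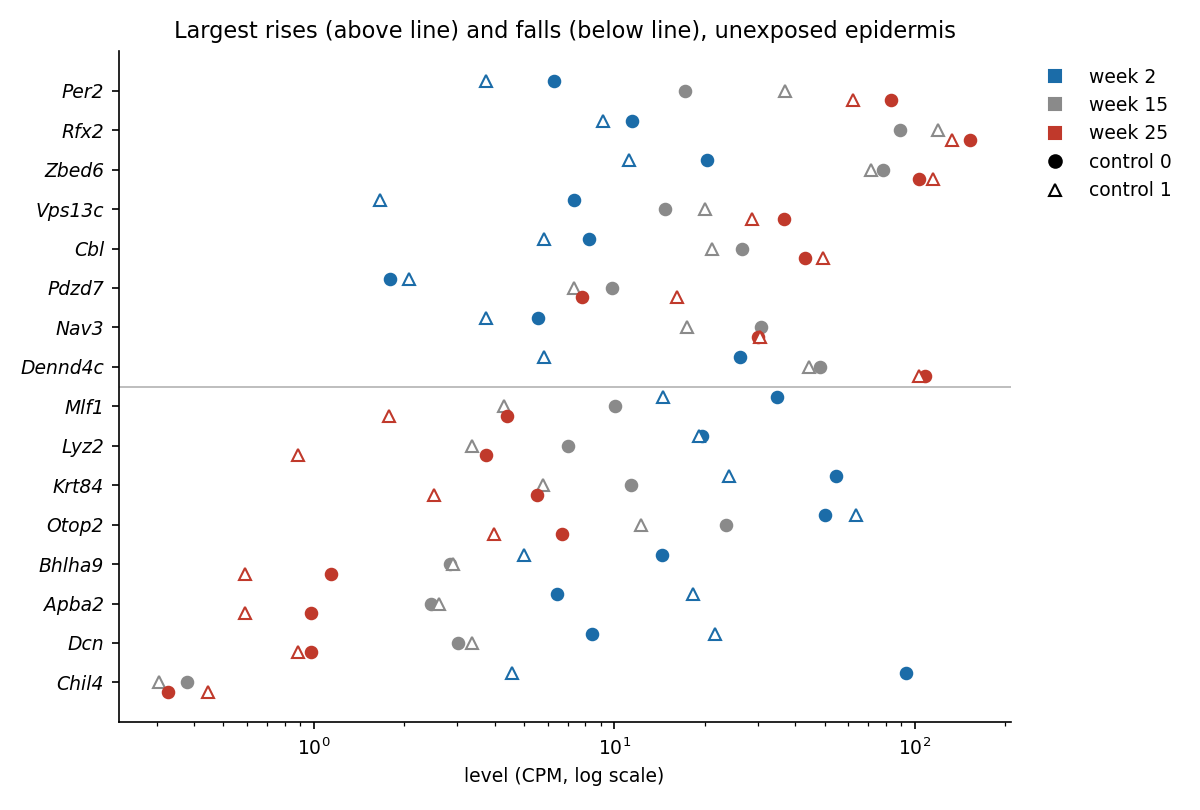
CPM (log axis) of the 8 largest rises and 8 largest falls that were also called without week 2 control 1, in each of the 6 unexposed epidermis libraries. Circles are control 0, triangles control 1 and colours weeks. The naming rule required that the week 25 and week 2 libraries do not overlap. Genes above the line are rises and genes below it falls. Chil4 differs most between the 2 week 2 libraries.

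The plot of CPM by library shows 5 further rises of this kind. Vps13c, which encodes a lipid transfer protein of membrane contact sites, rose by 2.69 ± 0.45 (7.36 and 1.66 CPM at week 2, 36.8 and 28.8 CPM at week 25). Cbl, the gene of a ubiquitin ligase that turns off receptor tyrosine kinases, rose by 2.67 ± 0.35 (8.25 and 5.81 to 43.1 and 49.3 CPM). Nav3, a neuron navigator gene, rose by 2.64 ± 0.37, and Dennd4c, whose product activates RAB10, by 2.60 ± 0.41. The week 2 values of Dennd4c were far apart, at 26.2 CPM in control 0 and 5.81 CPM in control 1, but both lay below 108 and 103 CPM at week 25. Pdzd7, a PDZ protein gene of stereocilia, rose by 2.64 ± 0.46, from 1.79 and 2.08 CPM to 7.81 and 16.1 CPM, and its exons overlap the opposite-strand gene Lzts2. Without the condition on week 2 control 1, the rule also names Tnfsf18 (3.73 ± 1.1), the transcription factor gene Zbtb16 (3.61 ± 0.75), the myo-inositol transporter gene Slc5a3 (2.93 ± 0.51) and the AP-1 gene Fosb (2.84 ± 0.62). These 4 were not called without that library, at adjusted p = 0.218, 0.0889, 0.0516 and 0.0502, and the exons of Slc5a3 overlap those of Mrps6.

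Among the falls, a chitinase-like gene, a matrix gene, a lysozyme gene and a hair keratin gene stood out. Otop2, which encodes a proton channel (chromosome 11, 115307163 to 115332303), stood at 50.2 and 63.5 CPM at week 2, 23.4 and 12.2 CPM at week 15 and 6.67 and 3.99 CPM at week 25, a fall of 3.41 ± 0.46 on the log2 scale (adjusted p = 0.0053). Chil4, which encodes a chitinase-like protein of allergic inflammation (chromosome 3, 106201491 to 106219479), was at 93.3 CPM in week 2 control 0 and 4.57 CPM in control 1. It lay between 0.306 and 0.443 CPM in the 4 later controls. The fitted change of -7.01 ± 1.34 (adjusted p = 0.0132) was called without week 2 control 1 (adjusted p = 0.00313) but not without week 2 control 0, week 25 control 0 or week 25 control 1 (adjusted p = 0.085, 0.0806 and 0.0902). Apba2, an adaptor of the amyloid precursor protein, fell by 3.90 ± 0.61 and Bhlha9, a limb patterning factor, by 3.52 ± 0.58, with all later values under 3 CPM. Mlf1 fell by 3.03 ± 0.60, from 34.6 and 14.5 CPM to 4.395 and 1.77 CPM. Dropping the condition on week 2 control 1 adds Adig, a fat cell gene (-3.62 ± 0.70), Crisp1, an androgen-dependent secreted protein gene (-3.56 ± 0.81), and Mfng, a NOTCH-modifying fringe gene (-3.54 ± 0.82). None of these 3 was called without that library, at adjusted p = 0.07, 0.0536 and 0.175. Of the 16 genes in the plot 8 stayed called without each of the 4 libraries in turn: Rfx2, Zbed6, Per2, Vps13c, Cbl, Nav3, Dennd4c and Otop2. The rule that named the 16 already required a call without week 2 control 1.

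Clock genes differed unevenly. Of 19 tested, 5 rose and none fell (median log2 0.19, against -0.01 over all genes tested), and the other 14 were not called. Beside Per2, Cry1, a cryptochrome that represses CLOCK (chromosome 10), stood at 47.55 and 49.0 CPM at week 2, 50.3 and 42.8 CPM at week 15 and 104.5 and 84.3 CPM at week 25, a rise of 0.97 ± 0.17 (adjusted p = 0.0104). Week 15 lay with week 2, and the week 25 libraries were apart from both. Clock rose by 0.79 ± 0.15 (88.6 and 97.2 to 147.6 and 173.8 CPM) and was not called with length offsets, where its change was 0.21 (adjusted p = 0.365). Hlf (1.24 ± 0.31) and Bhlhe40 (0.61 ± 0.17), which encode a clock output factor and a repressor, also rose, but not without week 2 control 1 (adjusted p = 0.0526 and 0.203). The paralogs Per1 (-0.21 ± 0.25, adjusted p = 0.565) and Per3 (0.48 ± 0.17, adjusted p = 0.0714) were not called. Of the 19, 3 were called higher without week 2 control 1, and without either week 25 control 2 were. Without week 2 control 0, 5 were called higher and 1 lower. With length offsets Per2 and Cry1 were called (median 0.02).

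Chaperone genes of the heat shock response rose in a subset. Of 18 tested, 5 rose and none fell (median 0.27). Hsph1, an HSP110 nucleotide exchange factor, stood at 77.9 and 49.0 CPM at week 2, 99.1 and 117.5 CPM at week 15 and 267.4 and 202.9 CPM at week 25, a rise of 1.87 ± 0.24 (adjusted p = 0.00451). Hsp90aa1, the stress-inducible HSP90 gene, rose by 1.47 ± 0.24 (52.2 and 39.9 to 144.1 and 113.3 CPM), and the HSP40 gene Dnajb4 by 1.30 ± 0.22 (65.3 and 39.9 to 147.6 and 115.6 CPM). Hspa1a (0.70 ± 0.17) and the mitochondrial chaperonin gene Hspd1 (0.60 ± 0.14) rose by less. Hspa1a is nearly identical to Hspa1b, whose change was 0.26 ± 0.13 (adjusted p = 0.177), so their values are uncertain. The constitutive Hspa8 changed by 0.14 ± 0.12 (adjusted p = 0.427). Hsph1 and Hsp90aa1 stayed called without each of the 4 libraries, and Dnajb4 missed the threshold only without week 25 control 0 (adjusted p = 0.0565). Among the 18, 3 were called without week 2 control 1, 2 without week 25 control 0 and 3 without week 25 control 1.

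Several members of these 2 groups rose, and promoters are shown for those called genes whose promoter held a match. Capitals mark a heat shock element core (GAANNTTC or TTCNNGAA, the letters of either strand) or, for Cry1, an E-box (CACGTG, which reads the same on both strands). Each promoter is the 250 bases before the RefSeq start (GRCm38.p6), 5′ to 3′ on the gene's strand, and all 4 genes lie on the minus strand. The promoters are chr5:149636316-149636565 (Hsph1), chr1:55087933-55088182 (Hspd1), chr17:34972157-34972406 (Hspa1a) and chr10:85185055-85185304 (Cry1).
Hsph1: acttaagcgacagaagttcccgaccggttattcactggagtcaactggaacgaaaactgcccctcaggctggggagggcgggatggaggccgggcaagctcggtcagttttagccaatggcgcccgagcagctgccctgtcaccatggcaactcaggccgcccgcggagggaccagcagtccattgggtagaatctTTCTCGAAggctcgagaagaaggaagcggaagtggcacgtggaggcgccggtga
Hspd1: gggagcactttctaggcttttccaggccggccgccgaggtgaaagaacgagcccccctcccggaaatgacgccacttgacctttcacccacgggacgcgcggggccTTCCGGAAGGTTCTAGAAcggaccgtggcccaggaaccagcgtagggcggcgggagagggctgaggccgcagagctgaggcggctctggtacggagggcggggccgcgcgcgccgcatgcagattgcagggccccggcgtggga
Hspa1a: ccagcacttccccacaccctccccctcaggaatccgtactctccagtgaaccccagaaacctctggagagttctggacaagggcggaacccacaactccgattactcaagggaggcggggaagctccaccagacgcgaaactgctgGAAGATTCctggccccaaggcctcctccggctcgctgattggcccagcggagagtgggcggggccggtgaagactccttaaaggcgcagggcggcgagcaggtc
Cry1: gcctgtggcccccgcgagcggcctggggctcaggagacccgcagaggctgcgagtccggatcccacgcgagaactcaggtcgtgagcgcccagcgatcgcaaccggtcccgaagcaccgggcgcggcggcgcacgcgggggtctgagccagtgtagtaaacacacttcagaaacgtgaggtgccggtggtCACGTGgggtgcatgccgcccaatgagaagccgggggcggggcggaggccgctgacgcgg
The 3 overlapping cores of Hspd1 form 1 run. Dnajb4 held no such core in this window, and of the 3 called clock genes with a promoter found only Cry1 held the E-box, while Clock and Hlf did not. No promoter was found for the called genes Hsp90aa1, Per2 and Bhlhe40. The core was present in 7 of the 13 heat shock list promoters found (53.8%), in 1046 of the 10215 promoters found for all genes tested (10.2%), and in 98 of 871 of the genes called higher (11.3%). The E-box was present in 5 of 16 clock promoters (31.2%) against 8.2% over all. A match is a string of letters, not a bound site.

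**Figure D2:**
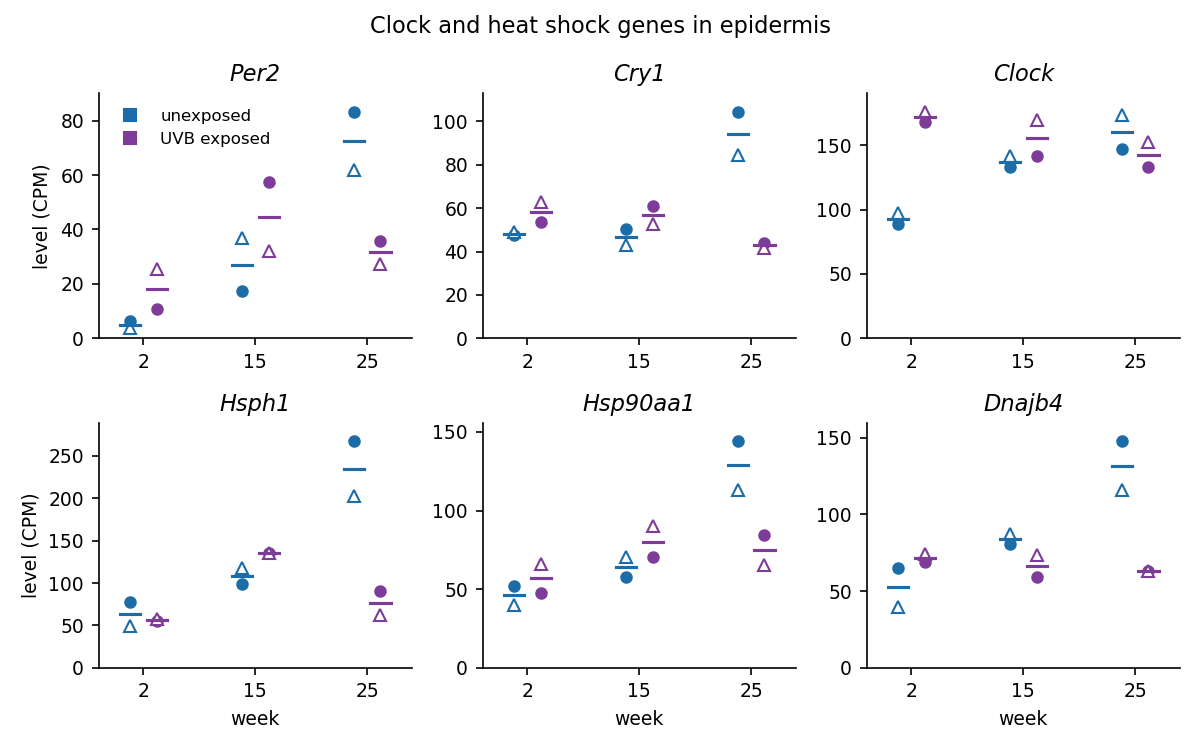
CPM of 3 clock genes and 3 chaperone genes in the 12 epidermis libraries by week. Circles and triangles are libraries 0 and 1, bars the mean of 2 libraries, blue unexposed and purple UVB exposed. The unexposed week 25 libraries hold the highest values of Per2, Cry1, Hsph1, Hsp90aa1 and Dnajb4, while the highest value of Clock is in week 2 UVB 1.

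Several genes of the hair follicle were lower at week 25. Hair shaft keratins and their partners had 3 of 24 called lower and none higher (6 lower by DESeq2, 12 with no filter on low counts), with a median of -1.54 against -0.01 over all genes, and the inner root sheath and companion layer had 2 of 14 lower (median -1.31). Krt84, a keratin of the hair cuticle (chromosome 15, 101525026 to 101532820), fell from 54.7 and 24.1 CPM at week 2 through 11.3 and 5.81 CPM at week 15 to 5.53 and 2.51 CPM at week 25 (-3.32 ± 0.55, adjusted p = 0.00874). The hair shaft keratin Krt39 (-2.35 ± 0.64) and the desmocollin gene Dsc2 (-2.14 ± 0.44) fell as well. In the inner layers Krt75, the companion layer keratin, went from 135.3 and 73.1 CPM to 22.6 and 10.3 CPM (-2.67 ± 0.48), and Padi1, a peptidylarginine deiminase gene, from 117.9 and 121.2 CPM to 28.2 and 22.3 CPM (-2.24 ± 0.36). Shh, the hedgehog ligand of the growing follicle, fell by 3.46 ± 0.76 but was not called without week 2 control 1 (adjusted p = 0.0687). The 24 shaft genes summed to 2529 and 1495 CPM at week 2, 1327 and 757.6 CPM at week 15 and 995.2 and 443.1 CPM at week 25, so control 0 held more than control 1 in each week. Sums of lists here and below cover the tested members. There were 4 shaft genes called lower without week 2 control 1 (median -1.99), but without week 25 control 1 none was, with 3 at an unadjusted p under 0.05 and a median of -1.01. Krt84, Krt75 and Padi1 had adjusted p = 0.0719, 0.0793 and 0.0675 there. The bulge and stem cell list had 2 of 17 higher, Krt15 and Col17a1, and none lower (median 0.07), against 8.47% and 5.24% over all genes. None was called without week 2 control 1 (2 higher and 2 lower unadjusted), length offsets called Krt15 higher and Tcf7l2 lower, and DESeq2 called 2 higher and 2 lower.

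Sebaceous and skin lipid genes had 8 of 26 called lower and none higher (median -0.84). Elovl3, an elongase of very long fatty acids, stood at 102.8 and 507.3 CPM at week 2, 62.0 and 100.4 CPM at week 15 and 49.97 and 64.1 CPM at week 25 (-2.40 ± 0.56). Week 2 control 1 was likewise the higher library for the cholesterol acyltransferase gene Soat1 (35.4 and 274.8 to 15.9 and 17.6 CPM, -3.18 ± 0.76), the lipid droplet gene Cidea (79.3 and 223.4 to 35.6 and 43.0 CPM, -1.92 ± 0.39), the microsomal glutathione transferase gene Mgst1 (-2.09 ± 0.45) and the sterol sensor gene Insig1 (118.2 and 175.2 to 54.9 and 69.1 CPM, -1.23 ± 0.23). The list summed to 4972 CPM in week 2 control 0 and 9353 CPM in control 1, against 4726 and 4963 CPM at week 25. None of the 26 was called without week 2 control 1 (1 higher and 8 lower at an unadjusted p under 0.05) and the median was -0.20. None was called without either week 25 library, and 18 were lower without week 2 control 0. With length offsets 5 were lower (median -0.95).

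Basal keratinocyte genes rose in part. Of 15 tested 6 were called higher and none lower, with a median of 1.07. Dst, whose large transcript encodes the hemidesmosome plaque protein BPAG1, rose by 1.74 ± 0.30 (209.6 and 133.7 CPM at week 2, 364.9 and 516 CPM at week 15, 622.6 and 529.1 CPM at week 25). Col17a1, the transmembrane collagen of hemidesmosomes, rose by 1.21 ± 0.27 (190 and 132.8 to 395.2 and 354.8 CPM), and Krt15, a keratin of basal and bulge cells, by 1.07 ± 0.21 (92.05 and 83.0 to 207.7 and 161.4 CPM). Krt5 (0.68 ± 0.17), the integrin gene Itga6 (1.19 ± 0.32) and Sox6 (1.84 ± 0.47) also rose, while Krt14 changed by -0.07 ± 0.15 (adjusted p = 0.762). Duplicate removal caps the counts of short abundant genes and can flatten their changes. Its part in the value of Krt14 was not tested. None of the 15 was called without week 2 control 1 (7 at an unadjusted p under 0.05, median 0.97) or without week 25 control 0 (10 unadjusted), and 2 were without week 25 control 1. The exons of these genes are long, with a median of 5263 bases, and 2 were called with length offsets, at a median of 0.68.

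Cell division genes rose in part. Of 30 tested 5 were called higher, none lower, and all 30 had a log2 value above 0 (median 1.0). The median was larger at week 15 against week 2, at 1.61. Mki67, the Ki-67 marker of cycling cells (chromosome 7, 135689788 to 135716379), stood at 21.7 and 22.8 CPM at week 2, 70.1 and 134.4 CPM at week 15 and 55.2 and 54.3 CPM at week 25 (1.30 ± 0.29, adjusted p = 0.0217). The topoisomerase gene Top2a (1.65 ± 0.40) and the replication helicase gene Mcm4 (1.18 ± 0.32) rose likewise. The list summed to 364.8 and 321.7 CPM at week 2, 561.5 and 1093 CPM at week 15 and 604.2 and 603.8 CPM at week 25, so week 15 control 1 held the most. No member was called without week 2 control 1, week 25 control 0 or week 25 control 1, with 9, 8 and 12 at an unadjusted p under 0.05, and none with length offsets (12 unadjusted). DESeq2 called 10.

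Growth factor pathways of the epidermis rose in part too. EGFR ligands and receptors had 4 of 13 called higher and none lower (median 0.20). The ligand genes Epgn (epigen) and Ereg (epiregulin) rose by 1.90 ± 0.36 (42.5 and 59.4 to 205.3 and 170.6 CPM) and 0.96 ± 0.20 (206.9 and 278.6 to 490.9 and 449.2 CPM), and the receptor genes Egfr and Erbb3 by 0.80 ± 0.17 and 0.72 ± 0.21. Both ligands were called without week 2 control 1, and Epgn with length offsets. In the WNT, hedgehog and NOTCH list 7 of 22 were called higher and 1 lower, Shh (median 0.58). The risers were the ligand genes Wnt3, Wnt10a (1.83 ± 0.49), Jag1 (0.72 ± 0.14) and Jag2 (2.11 ± 0.54) and the receptor genes Notch1 (1.16 ± 0.28), Notch3 (1.0 ± 0.19) and Ptch1 (1.55 ± 0.41). With length offsets Wnt10a alone was called higher and Shh lower (median 0.41), with Jag1 at 0.41 and Notch3 at 0.53 (adjusted p = 0.0753 and 0.0869). None of the 22 was called without week 2 control 1, where 8 higher and 4 lower had an unadjusted p under 0.05. Without either week 25 library no EGFR gene was called (4 higher unadjusted without control 0, 5 without control 1), and 1 (without control 0) and 0 (without control 1) of the second list were, with 9 higher and 1 lower at an unadjusted p under 0.05 in the last case.

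Some genes of small secreted and envelope proteins of the outer epidermis were lower at week 25. Stress keratins and alarm proteins had 7 of 20 called lower and none higher (median -0.71). Stfa2, a stefin that inhibits cysteine proteases and is one of several near-identical genes, fell from 46.8 and 39.0 CPM through 19.9 and 23.4 CPM to 11.4 and 13.3 CPM (-1.80 ± 0.18, adjusted p = 0.0027) and stayed called without each of the 4 libraries. The antimicrobial gene S100a7a fell from 99.8 and 76.8 CPM to 15.6 and 8.27 CPM (-2.89 ± 0.58), and was not called without week 25 control 0 or control 1 (adjusted p = 0.0564 and 0.105). Defb1, a beta-defensin gene, fell by 1.21 ± 0.29 with 115.0 CPM in week 2 control 0 and 259.9 CPM in control 1, and was not called without control 1. Of the 20, 2 were called lower without week 2 control 1, and without either week 25 library 1 was. With length offsets 2 were lower (median -0.41), and DESeq2 called 11. LCE and SPRR genes had 3 of 29 lower and none higher (median -0.94), among them Sprr1a (-1.04 ± 0.22), Lce1e (-1.01 ± 0.30) and Sprr2h (-0.98 ± 0.23). They summed to 2845 and 6131 CPM in week 2 controls 0 and 1, and none was called without control 1 (2 lower at an unadjusted p under 0.05, median -0.26) or without either week 25 library. The list had a median exon length of 678 bases, and with length offsets none was called (3 lower unadjusted) and the median was -0.44. DESeq2 called 13 lower, abundance offsets 13, no filter on low counts 14 and a mean of at least 1 CPM 11.

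Ribosomal protein genes, which are short and abundant, had 5 of 28 called lower and none higher, and all 28 had a log2 value below 0 (median -0.73). Rpl18, Rplp1 and Rps18 changed by -0.79 ± 0.23, -0.91 ± 0.27 and -0.79 ± 0.24. Their sum was 3895 and 7396 CPM in week 2 controls 0 and 1 and 3515 and 3270 CPM at week 25, so week 2 control 1 alone stood apart. No member was called without it, with none at an unadjusted p under 0.05 in edgeR and a median of -0.22. DESeq2 called 27 with the 12 epidermis libraries. None was called without either week 25 library or with length offsets (median -0.28), and 27 were without week 2 control 0. Nuclear genes of oxidative phosphorylation had 2 of 27 lower (Ndufa4 and Uqcrb, median -0.26), against 5.24% over all genes tested. Neither was called without week 2 control 1 (adjusted p = 0.30 and 0.235) or with length offsets (adjusted p = 0.272 and 0.53), where none of the 27 was called (2 higher unadjusted) and the median turned to 0.09. The nuclear RNA Neat1, in the list of RNA quality, was at 982.4 and 2094 CPM at week 2 and 701.7 and 743.9 CPM at week 25 (-1.09 ± 0.30). It was not called without week 2 control 1 (adjusted p = 0.276) and was called with length offsets (-2.03, adjusted p = 0.0176). The 11 RNA quality genes tested summed to 4331 and 7476 CPM in week 2 controls 0 and 1 and to between 4437 and 5112 CPM in the 4 later controls. Their part in the results above was not tested.

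Granular layer and barrier genes gave few and mixed calls, against shares of 8.47% higher and 5.24% lower over all genes tested. Of 29 differentiation genes 3 were called higher, the desmoglein gene Dsg1b (1.13 ± 0.23), Grhl3 (0.63 ± 0.16) and Notch3, and none lower, although 25 had a log2 value at or below 0 (median -0.35). Other settings turned this balance of calls: DESeq2 called 3 higher and 9 lower, no filter on low counts 4 and 10, and abundance offsets 3 and 7. With length offsets 1 was called higher, Dsg1b. The suprabasal keratins Krt1 and Krt10 stood at 1161 and 1264 CPM in week 2 control 1 against 582.8 to 765.2 CPM in the other 5 controls, and were not called (adjusted p = 0.163 and 0.0824). Ceramide and lipoxygenase genes had 1 of 23 lower, the ceramide desaturase gene Degs2 (-1.19 ± 0.35). None of these 4 calls held without week 2 control 1.

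The DNA methylation list, chosen because the series also has methylation data, had 5 of 18 called higher and 1 lower (median 0.65). Dnmt3a, a de novo methyltransferase gene, rose by 1.15 ± 0.23 (41.3 and 27.0 to 68.4 and 85.5 CPM), the 5-methylcytosine dioxygenase gene Tet3 by 1.15 ± 0.20 (187.2 and 116.2 to 327.2 and 353.2 CPM) and the methyl-CpG binding factor gene Zbtb33 (Kaiso) by 1.13 ± 0.26 (53.8 and 24.9 to 93.6 and 83.7 CPM). Dnmt1 (0.72 ± 0.18) rose as well, and Gadd45a fell by 1.46 ± 0.36. The median exon length of the list was 3871 bases. None of the 18 was called with length offsets, where 8 higher and 2 lower had an unadjusted p under 0.05. Without week 2 control 1 and without week 25 control 0 2 were called higher, and without week 25 control 1 none was (5 higher and 3 lower unadjusted). In the p53 target list 6 of 28 rose and 1 fell, Gadd45a (median 0.39). Eda2r, an ectodysplasin receptor gene, rose from 2.69 and 5.397 CPM to 11.2 and 15.4 CPM (1.84 ± 0.38), Zmat3 rose by 0.67 ± 0.16, and the cell cycle inhibitor gene Cdkn1a changed by -0.14 ± 0.14 (adjusted p = 0.49). Eda2r alone was called without week 2 control 1. With length offsets 1 of the 28 was called, Phlda3, with Eda2r at an adjusted p of 0.0556 and Zmat3 at 0.21 (adjusted p = 0.322).

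Other process lists held few calls, against shares of 8.47% higher and 5.24% lower over all genes tested. Glycolysis and hypoxia genes had 4 of 24 higher, among them Hif1a (0.82 ± 0.18), Gpi1 (0.52 ± 0.13) and Pfkl (0.93 ± 0.24), but none with length offsets (8 higher unadjusted), where the median fell from 0.40 to 0.14. Interferon response genes had none of 30 called by edgeR (3 higher and 1 lower at an unadjusted p under 0.05, 2 higher and 1 lower by DESeq2) and a median of 0.48. Antioxidant genes had 1 of 28 higher, the cystine transporter gene Slc7a11 (1.48 ± 0.34), and 2 lower, Gpx4 (-1.17 ± 0.33) and Gsta3 (-3.14 ± 0.81), and Gsta3 has near-identical paralogs. Secretory factor genes had Igfbp3 higher (1.64 ± 0.42), with Mmp12, a macrophage elastase gene (-3.96 ± 0.77), and Igfbp4 (-1.72 ± 0.42) lower, of 23. Irs2, an insulin receptor substrate gene, rose by 1.82 ± 0.43 in the insulin-like growth factor list, which had 2 of 15 higher and 1 lower. Tap2 (0.55 ± 0.16) and Erap1 (0.77 ± 0.18) rose among 17 antigen processing genes. The inflammatory mediator Il1b fell by 1.64 ± 0.35, from 5.56 and 7.89 CPM to 1.63 and 2.51 CPM, and was the 1 called of 17. Cd59a (-1.42 ± 0.36) was the 1 called of 13 complement genes, and Angptl4 (-2.29 ± 0.59) and Acot1 (-0.94 ± 0.25) were the 2 called of 19 fatty acid oxidation genes. Of the genes named in this paragraph, Mmp12 alone was called without week 2 control 1 (adjusted p = 0.0224), and Mmp12, Igfbp3, Igfbp4 and Il1b were called with length offsets.

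**Figure D3:**
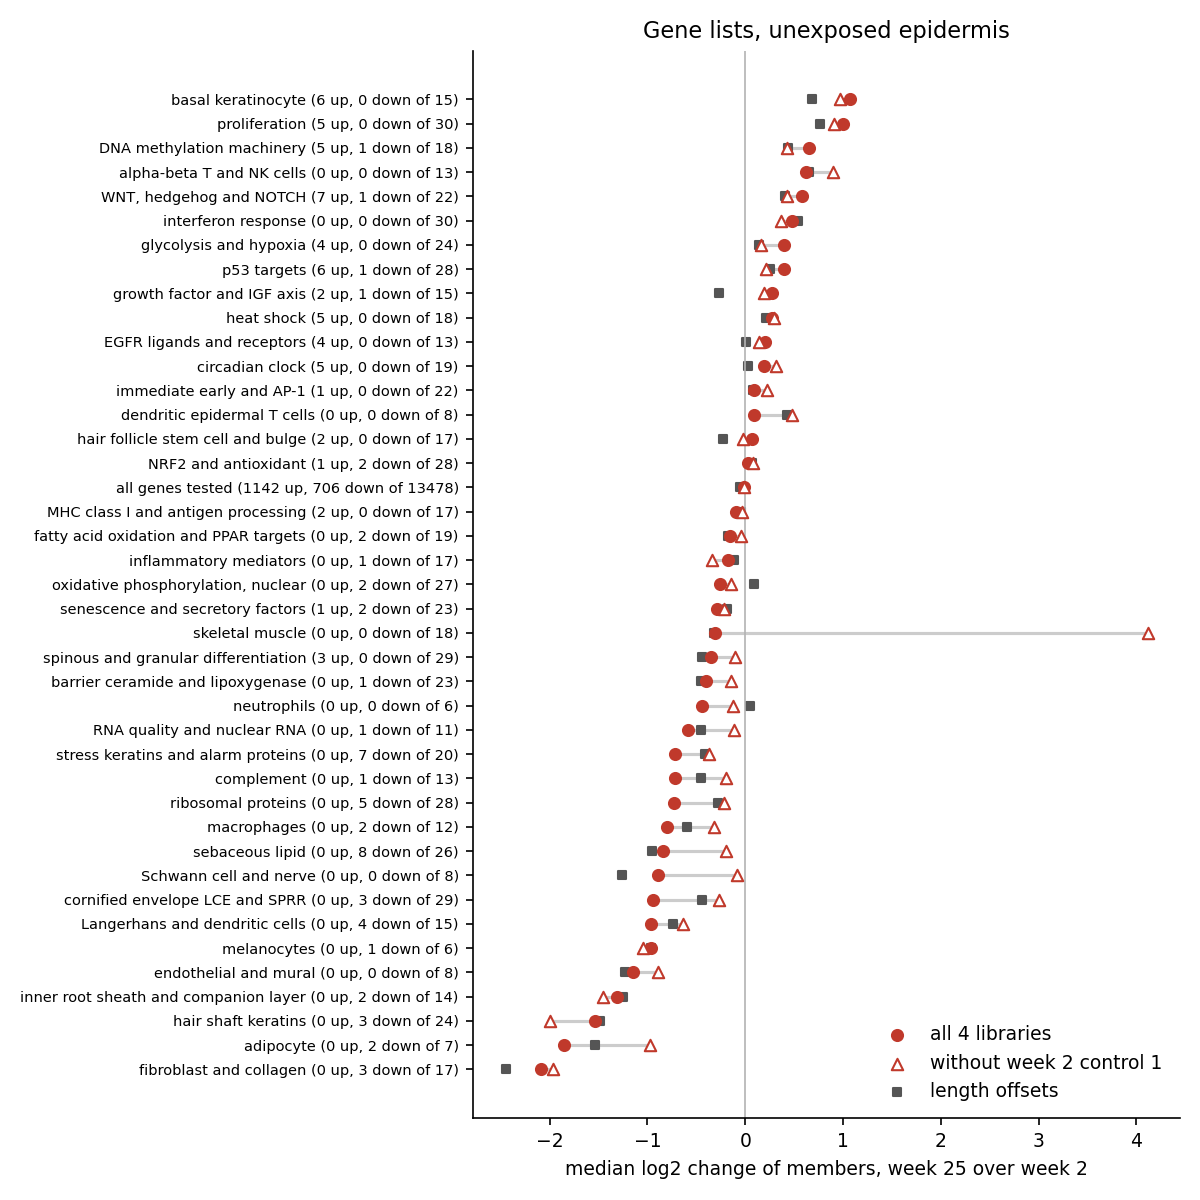
Median log2 change (week 25 over week 2, unexposed epidermis) of the tested members of each gene list with at least 6 tested members. Circles use all 4 libraries, triangles leave out week 2 control 1 and squares use length offsets, with the counts of called members in the labels. Basal keratinocyte and proliferation lists lie near 1 in the first 2 settings, hair shaft and inner root sheath lists below -1 in all 3, and the sebaceous, ribosomal and skeletal muscle lists shift when week 2 control 1 is left out.

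Some markers of dermal and immune cells were lower at week 25. In bulk epidermis fewer cells of a type and less RNA per cell cannot be told apart. Fibroblast and collagen markers had 3 of 17 called lower and none higher (median -2.08). Dcn, the matrix proteoglycan decorin (chromosome 10, 97479500 to 97518162), stood at 8.43 and 21.6 CPM at week 2, 3.025 and 3.36 CPM at week 15 and 0.977 and 0.886 CPM at week 25 (-3.94 ± 0.58, adjusted p = 0.00585). Col3a1 was at 9.87 and 9.96 CPM at week 2 and 1.95 and 0.295 CPM at week 25 (-3.15 ± 0.90). Col6a2 had 19 counts over the 2 week 2 libraries and none over the 2 week 25 libraries, at least 10.25-fold lower at a limit of 3 counts over the group (adjusted p = 0.0262). The summed level of the 17 tested markers was 120.6 and 159 CPM at week 2 and 109.7 and 91.7 CPM at week 25. Thy1, the most abundant of them and one shared with T cells, changed by 0.68 ± 0.34 (adjusted p = 0.169). Without week 2 control 1 2 were called, without week 25 control 0 1, and without week 25 control 1 none (5 lower unadjusted), with Dcn at an adjusted p of 0.0536. DESeq2 called 5, and length offsets 2.

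Macrophage markers had 2 of 12 called lower (median -0.80). Lyz2, the lysozyme gene of myeloid cells, stood at 19.6 and 19.1 CPM at week 2, 6.995 and 3.36 CPM at week 15 and 3.74 and 0.886 CPM at week 25 (-3.07 ± 0.59, adjusted p = 0.0136). Lyz1, its near-identical copy, had 34 and 3 counts, a ratio of 18.3 (95% counting interval 5.77 to 93.3). The lysosomal marker Cd68 stood at 22.1 and 21.2 CPM against 17.1 and 17.1 CPM (adjusted p = 0.293). The summed level of the list was 68.2 and 68.9 CPM at week 2 and 39.7 and 33.8 CPM at week 25. Lyz2 and Lyz1 made up most of that drop, and the call of Lyz1 was lost when any 1 of the 4 libraries was left out. Langerhans and dendritic cell markers had 4 of 15 lower (median -0.96), with the antigen presentation genes H2-Aa (-1.19 ± 0.33) and H2-Ab1 (-1.31 ± 0.31), the class II activator Ciita and Mfge8 (-1.16 ± 0.32). The Langerhans cell marker Cd207 (langerin) was at 24.4 and 35.7 CPM at week 2 and 27.0 and 13.3 CPM at week 25 (adjusted p = 0.373). Epcam, the most abundant member of this list, was at 325.7 and 601.1 CPM at week 2 and 287.5 and 259.7 CPM at week 25. It was not called (adjusted p = 0.0604) and makes up a large part of the list's sum. The Langerhans list summed to 1023 and 1650 CPM at week 2 and 842 and 628.2 CPM at week 25, and none was called without week 2 control 1 (4 lower unadjusted) or either week 25 library. DESeq2 called 8 of them lower, and length offsets Ciita alone. Lyz2 held without week 2 control 1 and week 25 control 0 but not without week 25 control 1 (adjusted p = 0.0793).

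Mitf, the melanocyte transcription factor gene, which other cells express too, fell from 72.1 and 66.8 CPM through 40.5 and 20.3 CPM to 23.1 and 11.4 CPM (-2.02 ± 0.36, adjusted p = 0.0103), and was not called without week 25 control 1 (adjusted p = 0.0725). The other 5 melanocyte markers tested were not called, and the list summed to 92.8 and 81.8 CPM at week 2 and 31.9 and 22.15 CPM at week 25. Mitf itself made up most of each sum. Adipocyte markers had 2 of 7 lower, Fabp4 (124.7 and 103.4 to 43.1 and 15.9 CPM, -1.96 ± 0.56) and Lpl (29.2 and 224.2 to 15.1 and 14.8 CPM, -3.05 ± 0.73), and neither was called without week 2 control 1. Skeletal muscle markers summed to 27.99 CPM in week 2 control 0 and 146.5 CPM in control 1, and to 66.25 and 55.5 CPM at week 25, with none of 18 called in edgeR (1 lower unadjusted, 1 by DESeq2). Without week 2 control 1 none was called either, and the median was 4.12 against -0.31 with it. In week 2 control 0 Mylpf alone held 19.6 of the 27.99 CPM, so the other members had few counts there. The median of 4.12 thus rests on low counts in 1 library. No member was called in edgeR among markers of endothelial and mural cells (0 of 8), Schwann cells (0 of 8, 3 lower unadjusted), T and NK cells (0 of 13, 1 higher and 1 lower), dendritic epidermal T cells (0 of 8), neutrophils (0 of 6, 3 lower), mast cells (0 of 3), B and plasma cells (0 of 3, 1 lower), Merkel cells (0 of 4, 1 lower) and erythrocytes (0 of 2). DESeq2 called 1 Schwann cell and 1 neutrophil marker lower and no marker of the other 7. Listed at 0 counts in all 6 controls were Elane and Trem1 of neutrophils, Ms4a2, Fcer1a and Mcpt8 of mast cells and basophils, Ms4a1 and Pax5 of B cells, Atoh1 of Merkel cells and 5 of 7 erythrocyte genes, the globins among them. The mast cell receptor gene Mrgprb2 stood at 59.9 CPM in week 25 control 0 and 6.94 CPM in control 1. The part of these cells in the results for other genes was not tested.

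The change with time ran with exon length. By the length of a gene's exons in the deposited table, the median log2 change was -0.57 for 1097 genes under 1000 bases, -0.26 from 1000 to 2000, -0.05 from 2000 to 3000, 0.14 from 3000 to 5000 and 0.38 for 2411 genes of 5000 bases or more. Of the longest class 24.2% were called higher and 1.95% lower, and of the shortest 0.182% and 13.3%. Genes called higher had a median length of 5081.5 bases and genes called lower 1796 bases, against 2828 over all. Across the 13478 genes, which are not independent replicates, Spearman's rho between length and log2 change was 0.36. It was 0.36 without week 2 control 1 as well, 0.02 with length offsets, and -0.02 for week 25 against week 2 in UVB-exposed epidermis. Transcript GC content, available for 96.4% of genes tested, had a median of 47.35% among genes called higher, 51.43% among those lower and 49.87% over all.

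**Figure D4:**
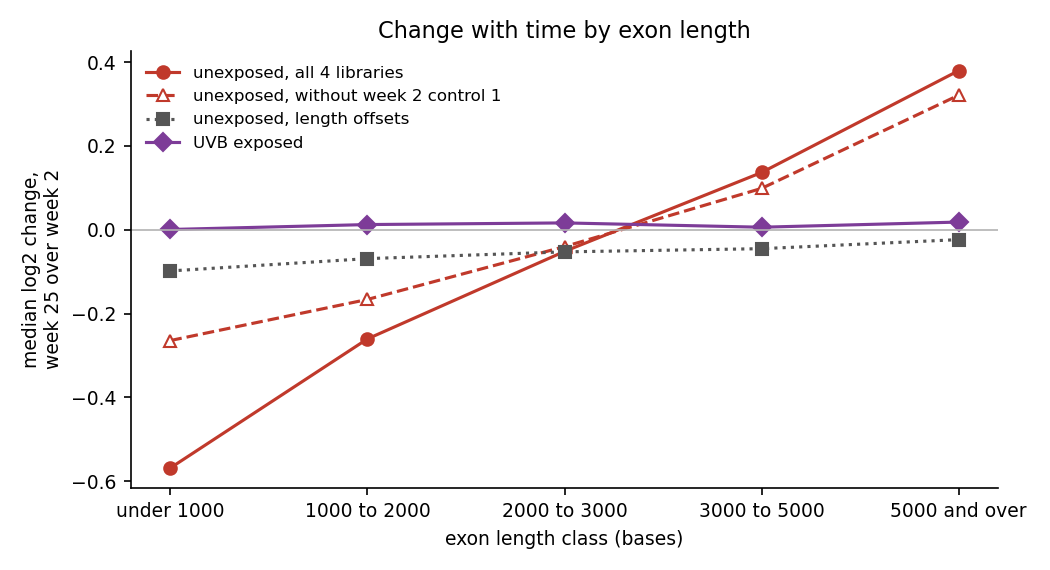
Median log2 change (week 25 over week 2) in 5 classes of exon length in bases. The unexposed line climbs from -0.57 to 0.38, less steeply without week 2 control 1, and is nearly flat with length offsets and in UVB-exposed epidermis.

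The balance of long and short genes varied between single libraries. The median deviation of genes of 5000 bases or more, minus that of genes under 1000 bases, was -0.09 in week 2 control 0 and -0.63 in week 2 control 1. It was 0.44 and 0.12 in the week 15 controls and 0.49 and 0.50 in the week 25 controls. The 6 UVB-exposed libraries lay between -0.23 and 0.06. Week 2 control 1 was thus lowest and both week 25 controls highest, while the week 2 UVB libraries were at -0.23 and -0.18. The longest and shortest classes differed in the week 25 to week 2 change by 0.95 log2 with all 12 epidermis libraries. The difference was 0.59 without week 2 control 1 and 1.26 without week 2 control 0. With length offsets and without week 2 control 1 together, an alternative added after the data were seen, 25 genes were called higher and 32 lower, 22 and 30 of them among the original calls. Zbed6, Ago2, Dhrs9, Hsph1, Lnpep, Rfx2 and Dennd4c were among the higher and Stfa2, Chil4, Dcn, Krt84, Krt75 and Otop2 among the lower.

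**Figure D5:**
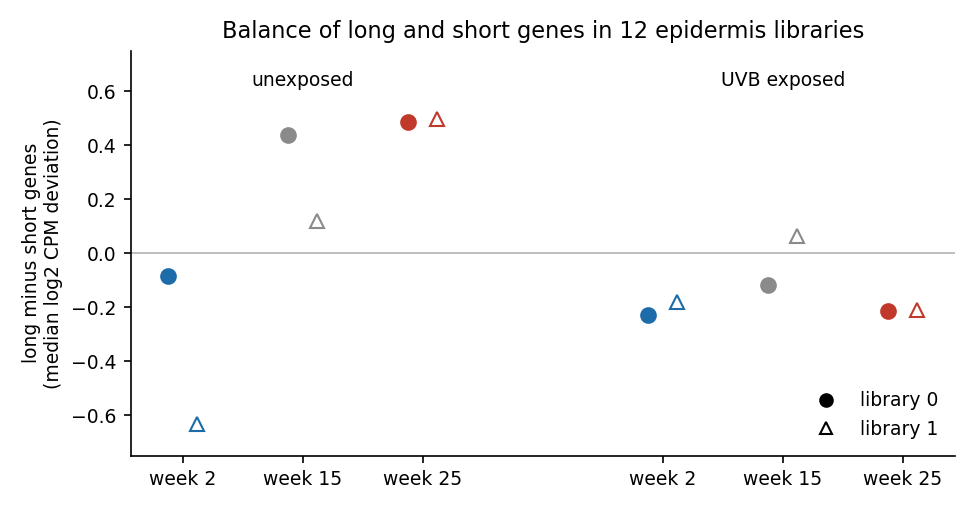
Median log2 CPM deviation of genes with 5000 or more bases of exon minus that of genes under 1000 bases, for each of the 12 epidermis libraries. Week 2 control 1 lies at -0.63, the week 25 controls at 0.49 and 0.50, and the UVB-exposed libraries between -0.23 and 0.06.

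At week 15 the controls differed from week 2 in few genes by the same test. In all 3 of 13478 were called (0.0223%), with 3855 at an unadjusted p under 0.05 and 1297 called by DESeq2. They were Rfx2 (3.30 ± 0.43, adjusted p = 0.0486), Zbed6 (2.19 ± 0.25, adjusted p = 0.0356) and Mki67 (2.21 ± 0.29, adjusted p = 0.0486). Leaving out week 2 control 0 gave 3640 calls, week 2 control 1 5, week 15 control 0 751 and week 15 control 1 none (2082 unadjusted). Between weeks 25 and 15 none was called (0%), with 1454 at an unadjusted p under 0.05 and 62 called by DESeq2. These comparisons share libraries with the main one.

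The change from week 2 to week 25 differed between UVB-exposed and unexposed epidermis for 1067 of 13478 genes (7.92%), 449 with a higher and 618 with a lower change under UVB. The control libraries enter this test and the main comparison alike. Ago2, an Argonaute gene of microRNA silencing (chromosome 15, 73101625 to 73184947, its exons overlapping opposite-strand Chrac1), rose from 19.2 and 16.6 CPM to 96.7 and 119.5 CPM in unexposed epidermis (2.58 ± 0.19, adjusted p = 0.000586). In exposed epidermis its fitted change was -0.68, a difference of -3.26 ± 0.26 (adjusted p = 0.00121). Of the other genes with the smallest p in this test, Dhrs9, a retinol dehydrogenase gene, and Lnpep, an aminopeptidase gene, rose in unexposed epidermis by 1.61 ± 0.19 and 1.93 ± 0.21. Their differences between arms were -2.49 ± 0.26 and -2.52 ± 0.29 (adjusted p = 0.00495 each). Zbed6 (-3.69 ± 0.34), Nav3 (-4.46 ± 0.51) and the p53 target Eda2r (-4.50 ± 0.48) complete the 6 genes with the smallest p. For the clock and chaperone genes the differences were -2.97 ± 0.70 for Per2, -1.41 ± 0.24 for Cry1, -1.43 ± 0.33 for Hsph1 and -1.48 ± 0.30 for Dnajb4 (adjusted p from 0.0138 to 0.03), while that of Hsp90aa1 missed the threshold (-1.07 ± 0.33, adjusted p = 0.0685). Basal keratinocyte genes had medians of 1.07 in unexposed and 1.10 in exposed epidermis, and none of the 15 was called in this test (edgeR, 0 at an unadjusted p under 0.05). Leaving out 1 of the 8 libraries gave 71 to 3454 calls, with 3454 without week 2 control 0 and 71 without week 2 UVB 1.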

How the data were processed

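Epidermal RNA was sequenced, and reads per gene were deposited as raw counts by the authors in 1 table of 24421 genes. Per the submitters' processing notes, HISAT2, Picard, featureCounts, DESeq2 and the mm10 build were used, and per the file headers duplicates were removed, which caps the counts of short abundant genes. Groups came from the labels. The deposited counts were tested here in R 4.3.3 with edgeR 4.0.16 (filterByExpr with a minimum count of 10 and total of 15, TMM scaling, quasi-likelihood F test on group means over the 12 epidermis libraries, 6 residual degrees of freedom) and Benjamini-Hochberg adjustment over all 13478 genes. The biological coefficient of variation was 19.1%. Alternatives used DESeq2 1.42.0, other filters and scalings, other sets of libraries, and offsets on exon length or abundance (loess, span 0.4). Named genes were the 8 largest rises and falls with a mean of at least 5 CPM that were also called without week 2 control 1, the 8 largest without that condition, up to 3 called members of each of the 44 gene lists by p (or the member with the smallest p), the most abundant marker of each other cell type, and the 6 genes with the smallest p between arms, leaving out predicted gene models. Other genes named in the text from the lists were chosen after their values were seen. The members and lists were chosen with earlier results of these data known. The scripts were tested on simulated data. Depth ran from 2905165 to 7175363 counts in the controls. The counting interval for Lyz1 is exact and, like the limit of 3 counts, covers counting error only. Values of some named genes are not reported here.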

Additional observations from a re-analysis of the deposited data

Results flagged for a closer look

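The week 25 to week 2 change differed between UVB-exposed and unexposed epidermis for 1067 genes, by the test of the difference itself (edgeR, adjusted p under 0.05). Values of named genes among them follow. Among the largest rises in unexposed epidermis, the log2 change under UVB minus the unexposed change was Cbl -3.36, Dennd4c -3.06, Nav3 -4.46, Pdzd7 -2.86, Per2 -2.97, Rfx2 -3.62, Vps13c -2.38 and Zbed6 -3.69. Further genes with a lower change under UVB, from the clock, chaperone and small-p groups, had differences of Ago2 -3.26, Clock -1.07, Cry1 -1.41, Dhrs9 -2.49, Dnajb4 -1.48, Hsph1 -1.43 and Lnpep -2.52. Signalling, adhesion, p53 target and other list genes with a lower change had differences of Dsg1b -1.78, Eda2r -4.50, Egfr -1.31, Epgn -1.94, Ereg -1.67, Grhl3 -1.12, Notch3 -1.19, Slc7a11 -2.56, Zbtb33 -1.72 and Zmat3 -1.23. At week 2 both UVB libraries already lay above both controls for each of these genes with a lower change, except Vps13c and Hsph1. Hair, envelope and alarm genes had higher changes under UVB, with differences of Dsc2 3.08, Krt75 4.08, Krt84 4.73, S100a7a 3.65, Sprr1a 1.18 and Stfa2 1.77. The arms already differed at week 2 for these genes. UVB libraries 0 and 1 then held 5.14 and 2.78 CPM of Krt84, 5.49 and 3.10 CPM of Krt75 and 6.73 and 2.12 CPM of S100a7a. Dsc2 and Sprr1a were likewise below both week 2 controls, while Stfa2, at 95.7 and 91.7 CPM, was above both. Markers of dermal, fat and immune cells had differences of Acta2 4.71, Col3a1 7.03, Dcn 4.49, Fabp4 5.02, H2-Aa 2.27, H2-Ab1 2.38, Lyz2 4.62 and Mfge8 2.51. Secreted, inflammatory and other genes had differences of Angptl4 3.20, Chil4 11.11, Igfbp3 2.95, Il1b 2.42, Mlf1 3.63, Mmp12 6.24, Mmp9 5.33, Mx1 2.98 and Otop2 4.27. Col6a2 had a fitted difference of 11.01, which depends on the prior count because both week 25 control libraries had 0 counts. The control libraries enter both this test and the comparison of weeks, and leaving out 1 library gave 71 to 3454 such genes.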

How the results depend on the processing

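Counts of genes called moved with the tool, filter, libraries and offsets, and the cause was not tested. DESeq2 called 1469 lower, 1297 between weeks 15 and 2, 62 between weeks 25 and 15 and 1758 between arms. With no filter on low counts these were 1363, 1075, 5 and 1612, and the difference between the longest and shortest length class was 0.63. Between weeks 15 and 2, RLE size factors gave 1, a mean of at least 1 CPM 1, abundance offsets 56 (with 1339 lower at week 25), thinning to the shallowest library 11 (with 649 between arms) and leaving out genes near the duplicate ceiling 28. The groups compared alone gave 1 higher and 0 lower (1420 lower unadjusted, edgeR). The 6 controls alone gave 21 higher, 11 lower and 1 at week 15, and all 16 libraries 531, 333 and 0 (3234 unadjusted), with 517 between arms. Length offsets gave 327 higher, 303 lower, a class difference of 0.0747, 1 gene at week 15 and 665 between arms. Length offsets without week 2 control 1, chosen after seeing the data, gave 25, 32, 0.00502, 5 and 365. Leaving out 1 library gave 137 to 2508 higher, 18 to 2080 lower, class differences of 0.59 to 1.26, 0 to 3640 genes between weeks 15 and 2 and 71 to 3454 between arms. The lowest came without week 25 control 1 (higher, lower), week 2 control 1 (class difference), week 15 control 1 (weeks 15 and 2; 2082 unadjusted, edgeR) and week 2 UVB 1 (arms), and the highest without week 2 control 0.

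The labels name no pairing of libraries by replicate number, and deviations of same-numbered controls correlated at 0.06 (weeks 2 and 25), -0.06 and 0.07. Such low correlations cannot exclude a factor that same-numbered libraries share for some genes. The hair shaft sum was higher in control 0 than in control 1 in each week. A replicate block gave 956 higher and 546 lower, 0 genes between weeks 15 and 2 (3612 unadjusted, edgeR) and 907 between arms. With it 6 hair shaft genes were called lower in place of 3, and none of the 28 ribosomal protein genes in place of 5 (27 lower unadjusted). Uncalled markers changed sign in some settings. Cd3g was at 0.0103 with no filter, 0.33 with length offsets, -0.46 to 0.47 with 1 library left out (0.35 without week 25 control 1) and 0.68 with both changes. S100a9 was at 0.15 with length offsets and 0.0560 with both, and Chga at -0.83 to 0.38 with 1 library left out and 0.48 with both. Flt1 was at -0.0268, and the called Rplp1 and Rps18 at 0.0472 and 0.0345, with both.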
